A study of Saccharomyces cerevisiae with 16 samples.

Results

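Small nucleolar RNAs (snoRNAs) are short noncoding RNAs that work in the nucleolus. The C/D box family guides methylation of the ribose in ribosomal RNA (rRNA), the H/ACA box family guides conversion of uridine to pseudouridine, and a few members (U3, U14 and snR30) are needed for cleavage of the rRNA precursor. In budding yeast most snoRNA genes have a promoter of their own and are transcribed by RNA polymerase II (RNAPII), some are transcribed together as a cluster and cut apart, and a few lie in introns of protein-coding genes and are released from the spliced intron. The genes examined here were all those annotated as snoRNA on the 16 nuclear chromosomes of *Saccharomyces cerevisiae* (R64 annotation, sacCer3 coordinates), which gave 76 of 6431 nuclear genes. They comprised 47 C/D box and 29 H/ACA box genes, and were from 78 to 1004 bp long with a median of 125 bp. Of these, 8 lay within an intron of a protein-coding gene on the same strand and are called intronic, and the other 68 are called independent.

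RNAPII occupancy was profiled by ChIP-seq with the antibody 8WG16, which recognizes the RNAPII subunit Rpb1. The W303a background was used in both genotypes, WT and *ubc9-6*, which carries a tandem repeat of a mutant allele of the SUMO-conjugating enzyme gene *UBC9* integrated with a *TRP1* marker. Mid-log cultures in SC medium at 30 °C were left untreated or heat shocked for 12 min at 37 °C. The study names 37 °C as a non-permissive temperature for *ubc9-6*. In that strain heat shock and the move to this temperature cannot be told apart. The 4 groups had 2 independent replicates each, which gave 8 peak lists with 1451 to 1545 peaks and a median peak width of 1268 to 1488 bp. No pair of lists was identical. The reads behind each list are not known here, so no value carries a counting interval.

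For each gene the covered share was computed, which is the fraction of its annotated length under peaks of a list, from 0 to 1. A gene was called occupied when its covered share was at least 0.5, gained when it was occupied in both lists of one group and neither list of the other, and lost in the opposite case. Of the 608 covered shares of snoRNA genes (76 genes in 8 lists), 539 were 1 and 64 were 0, and 5 lay between. Since the genes are much shorter than the peaks, the covered share says whether a peak reached the gene and not how much RNAPII was there. A peak over a snoRNA gene may belong to a neighbouring gene. The peaks themselves were therefore examined for open reading frames (ORFs) that they also covered by at least 0.5 of the length.

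The sequences of 6 C/D box genes are shown because they cover these contrasts, intronic genes against an independent relative and against a gene of another polymerase. *SNR39* and *SNR59* lie in introns of the paralogous ribosomal protein genes *RPL7A* and *RPL7B*, and *SNR39B* is an independent gene of related sequence. *SNR24* and *SNR38* lie in introns of *ASC1* and *TEF4* (the first lacks TGATGA in its first bases), and *SNR52* is the one snoRNA gene that is transcribed by RNA polymerase III. Sequences are 5′ to 3′ from RefSeq R64, and the capitals mark box C (TGATGA in the first 25 bases) and box D (CTGA in the last 12 bases). The genes lie at chrVII:365163-365251 (minus strand, *SNR39*), chrXVI:173827-173904 (plus, *SNR59*), chrVII:366374-366469 (minus, *SNR39B*), chrXIII:499984-500072 (minus, *SNR24*), chrXI:283185-283279 (plus, *SNR38*) and chrV:431129-431220 (minus, *SNR52*).
SNR39: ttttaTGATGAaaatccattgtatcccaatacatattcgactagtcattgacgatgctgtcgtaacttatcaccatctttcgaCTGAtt
SNR59: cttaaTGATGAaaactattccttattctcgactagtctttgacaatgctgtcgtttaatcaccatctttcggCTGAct
SNR39B: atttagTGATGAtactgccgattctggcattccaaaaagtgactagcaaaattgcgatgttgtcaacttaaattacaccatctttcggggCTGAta
SNR24: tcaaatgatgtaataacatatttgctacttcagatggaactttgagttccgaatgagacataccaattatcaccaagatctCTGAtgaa
SNR38: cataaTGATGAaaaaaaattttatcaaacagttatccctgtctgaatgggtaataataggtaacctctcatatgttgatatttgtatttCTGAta
SNR52: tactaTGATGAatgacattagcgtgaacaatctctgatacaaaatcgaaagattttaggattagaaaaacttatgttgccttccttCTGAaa
In a global alignment *SNR39* and *SNR59* were identical in 74.4% of columns, and *SNR39* and *SNR39B* in 68.3%. TGATGA was found in the first 25 bases of 36 of 47 C/D box genes, 1 of 29 H/ACA box genes and 1.68% of all nuclear genes, on the gene's own strand. CTGA was found in the last 12 bases of 44 of 47 C/D box genes, against 1 of 29 H/ACA box genes and 7.28% of all genes. The trinucleotide ACA was found in the last 6 bases of 16 of 29 H/ACA box genes, 3 of 47 C/D box genes and 1.42% of all genes. The box classes taken from gene lists matched the annotation for 74 of 76 genes, and the other 2 are the U3 genes, which the annotation names U3.

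Most snoRNA genes lay under peaks in every list. In WT, 67 and 63 of the 76 were occupied when untreated, as against 61 and 58 following heat shock. In *ubc9-6* the number was 75 in both untreated lists and 71 in both heat-shocked lists. All 4 *ubc9-6* lists were above all 4 WT lists, and within each strain both heat shock lists were below both untreated lists. Over all nuclear genes, the mean number occupied was 1823.5 in untreated and 1700.5 in heat-shocked WT, a fall of a like proportion, and 1865.5 and 1834.5 in *ubc9-6*. Of the 76 genes, 58 (76.3%) were occupied in all 8 lists, against 14.6% of all nuclear genes, 13.9% of the 6002 protein-coding genes and 12.4% of the 275 tRNA genes, which are also short. Of the 6 genes annotated as small nuclear RNA, 5 (83.3%) were occupied in all 8 lists, so this trait was not particular to snoRNA genes. A single snoRNA gene, *SNR52*, was occupied in no list, while 56.1% of all genes were occupied in none.

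**Figure D1:**
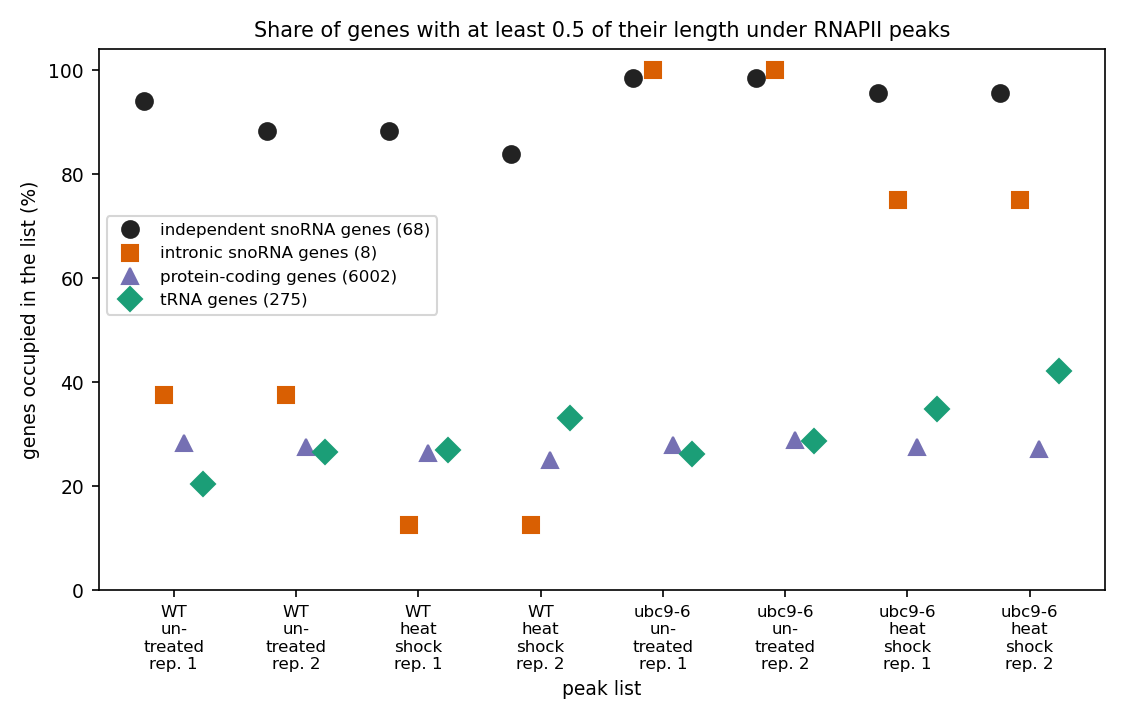
Percent of genes occupied (y axis) in each of the 8 peak lists (x axis), with 1 point per gene class and list and the number of genes of each class in brackets. Independent snoRNA genes stay high in all lists (57 to 67 of 68 occupied), while the 8 intronic ones go from 1 occupied gene in both heat-shocked WT lists to 8 in both untreated *ubc9-6* lists.

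Independent and intronic genes differed in how steadily they were covered. Of the 68 independent genes, WT lists had 64 and 60 occupied without and 60 and 57 with heat shock. The number was 67 and 67 in untreated *ubc9-6* and 65 and 65 in heat-shocked *ubc9-6*, and 57 of 68 (83.8%) were occupied in all 8 lists. The intronic genes numbered 3 of 8 in both untreated WT lists, 1 in both heat-shocked WT lists, 8 in both untreated *ubc9-6* lists and 6 in both heat-shocked *ubc9-6* lists, and 1 of 8 was occupied in all lists. Thus 7 of the 17 snoRNA genes whose call changed among the lists were intronic. By family, 25 of 27 independent H/ACA box genes and 32 of 41 independent C/D box genes were occupied in all 8 lists.

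Every intronic snoRNA gene had the call of its host in every list, in 64 of 64 gene and list pairs. A peak over the host covers the intron with it, so RNAPII on the snoRNA and on the host cannot be told apart. *SNR38*, in the intron of the elongation factor gene *TEF4*, had a covered share of 1 in both untreated WT lists, 0 in both heat-shocked WT lists and 1 in all 4 *ubc9-6* lists. *SNR44*, an H/ACA box gene in the ribosomal protein gene *RPS22B*, had the same 8 values. Both were therefore without a peak only in heat-shocked WT. *SNR39* (in *RPL7A*), *SNR59* (in *RPL7B*) and *SNR24* (in *ASC1*, which encodes a protein of the small ribosomal subunit) were at 0 in all 4 WT lists and at 1 in all 4 *ubc9-6* lists. *SNR54*, in *IMD4* (an IMP dehydrogenase of guanine nucleotide synthesis), and *SNR191*, in *NOG2* (a GTPase of large subunit assembly), were at 1 in both untreated *ubc9-6* lists and at 0 in the other 6.

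*SNR18*, in the intron of the elongation factor gene *EFB1*, was at 1 in all 8 lists. Its peak also covered the neighbouring Hsp70 gene *SSA1* in each list. By fold enrichment over input, that peak ranked 24 and 54 for untreated WT, 16 and 5 for WT under heat shock, 23 and 46 in untreated *ubc9-6*, and 2 and 2 in heat-shocked *ubc9-6*, where rank 1 is the highest fold in the list. In each strain it stood higher in both heat shock lists than in both untreated lists, and how much of it lay on *EFB1* cannot be read from a list.

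**Figure D2:**
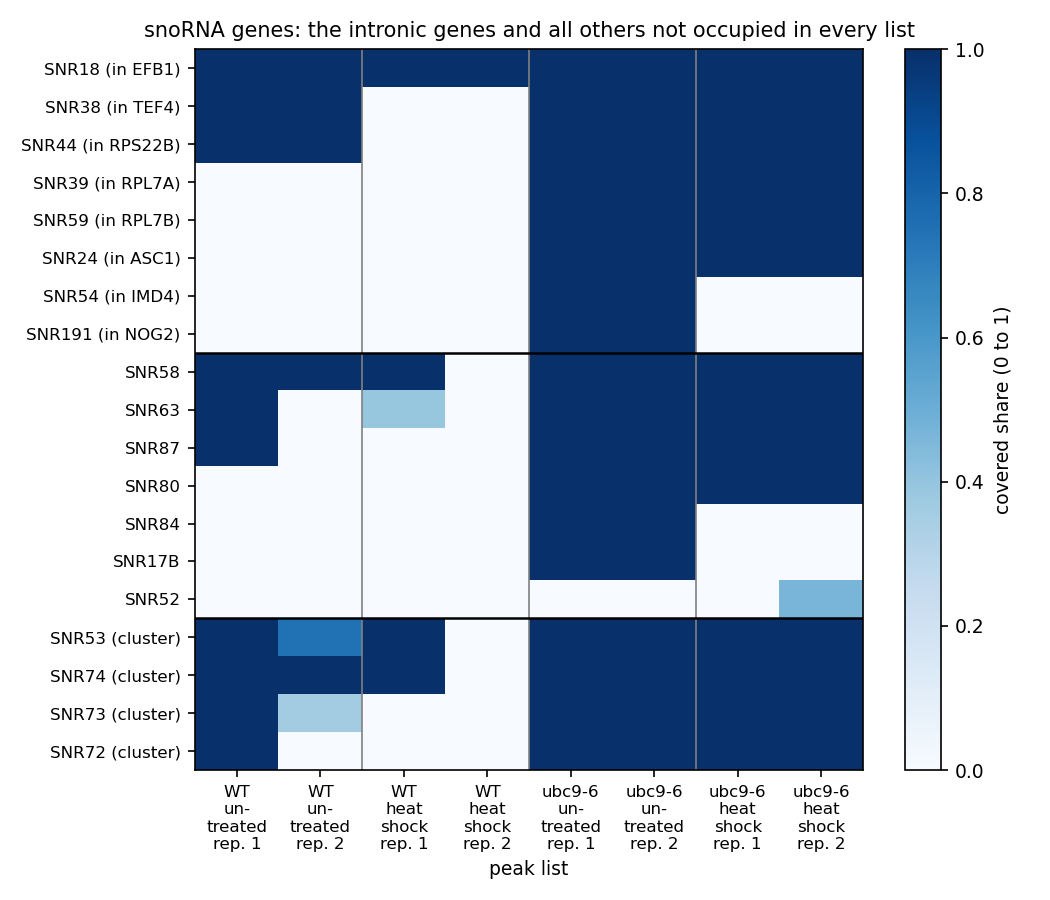
Covered share (colour, from 0 white to 1 dark blue) of the 8 intronic snoRNA genes (top, host in brackets), of the independent genes outside clusters that were not occupied in every list (middle) and of such genes in clusters (bottom), in the 8 lists (columns). Nearly all cells are at 0 or 1, and the *ubc9-6* columns are filled for all genes shown but *SNR52* when untreated.

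To see which changes held in every replicate, gains and losses were counted for each comparison beside the share of all 6431 genes called the same way. In heat-shocked against untreated WT, no snoRNA gene was gained (background 0.964%) and 2 of 76 were lost, *SNR38* and *SNR44* (2.63%, background 1.66%). In heat-shocked against untreated *ubc9-6*, none was gained (background 3.34%) and 4 were lost, *SNR84*, *SNR54*, *SNR191* and *SNR17B* (5.26% against a background of 3.81%). The losses in both strains were close to the background share, but only occupied genes can be lost and only unoccupied ones gained. In untreated WT, 67 and 63 of 76 snoRNA genes were occupied, against 1843 and 1804 of all 6431 genes. In untreated *ubc9-6* it was 75 and 75 against 1834 and 1897. The shares therefore do not compare losses among occupied genes. The count of losses in WT depended on single lists, since it was 6 without untreated WT replicate 2 (adding *SNR63*, *SNR87*, *SNR73* and *SNR72*) and 5 without heat-shocked WT replicate 1 (adding *SNR53*, *SNR58* and *SNR74*).

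Between strains all changes went one way. In untreated *ubc9-6* against untreated WT, 8 snoRNA genes were gained (10.5%, background 5.63%) and none was lost (background 4.26%). These were the intronic *SNR39*, *SNR59*, *SNR24*, *SNR54* and *SNR191* and the independent *SNR80*, *SNR84* and *SNR17B*. Thus 5 of the 8 intronic genes were gained, each with its host, and 3 of the 68 independent genes. The share among the independent genes was below the background. However, 64 and 60 of the 68 were already occupied in the untreated WT lists, against 1843 and 1804 of all 6431 genes. Few independent genes could therefore be gained, so this share does not show that they were gained less often. After heat shock 10 snoRNA genes were gained in *ubc9-6* (13.2%, background 5.18%) and none was lost (background 2.61%). They were the intronic *SNR38*, *SNR44*, *SNR39*, *SNR59* and *SNR24* and the independent *SNR63*, *SNR80*, *SNR87*, *SNR73* and *SNR72*. Here 5 of the 8 intronic and 5 of the 68 independent genes were gained, both shares above the background. The comparisons within and between strains share lists, so they are not independent of each other.

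Over both treatments, 4 snoRNA genes had the occupied call throughout *ubc9-6* but never in WT (5.26%, background 2.58%), and none had the reverse pattern (background 1.12%). These were *SNR80*, *SNR39*, *SNR24* and *SNR59*. The last 3 are intronic, and *SNR80* is 1 of the 68 independent genes, a share below the background. Few independent genes could have this call, since 57 to 64 of the 68 were occupied in each WT list. That share therefore does not show a lack of such genes. Each of the 4 genes had a difference of 1 in mean covered share (exact permutation p = 0.0556 each, two-sided, labels permuted within treatment). That is the smallest p this design allows, and every gene with this call has it, so the p adds nothing to the call. Without untreated WT replicate 1, 8 genes had the call, with *SNR63*, *SNR87*, *SNR73* and *SNR72* added. Over both strains, no snoRNA gene was in all heat shock lists and no untreated list (background 0.249%) or the reverse (background 0.342%). A comparison of 2 lists against 2 for one gene can give no exact permutation p below 0.333. In each comparison 18 snoRNA genes were tested in this way, the 17 whose call changed among the lists and *SNR52*.

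Outside the clusters, 6 independent genes changed call, and in 24 of their 25 occupied gene and list pairs the peak also covered an ORF. For comparison, a peak without an ORF lay over 21 of the 67 occupied independent genes in untreated *ubc9-6* replicate 1. In heat-shocked WT replicate 2 such peaks lay over 30 of 57. These were the lowest and highest shares among the lists. *SNR80*, an H/ACA box gene 400 bp from the ribosomal protein gene *RPL12A*, was at 0 in all WT lists and at 1 in all *ubc9-6* lists, and so was *RPL12A*, under the same peak. That peak ranked 101 and 115 by fold in untreated *ubc9-6* and 524 and 646 after heat shock. *SNR63*, 228 bp from *RPL31A*, had shares of 1 and 0 for untreated WT, 0.392 and 0 for WT under heat shock, and 1 in all *ubc9-6* lists, in which *RPL31A* was also at 1. The 2 untreated WT lists thus disagreed on it. *SNR87* was at 1 and 0 for untreated WT, 0 and 0 for WT under heat shock and 1 in all *ubc9-6* lists. In the latter its peak took in *CAP1*, *SFT1* (397 bp away) and *RPL14A* (767 bp away). In untreated WT replicate 1 the peak over *SNR87* took in *CAP1* and *SFT1*, while *RPL14A* was at 0. *SFT1* was between 0.395 and 0.421 in the other WT lists. *SNR58* was at 1 in every list but heat-shocked WT replicate 2, where it was at 0.

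*SNR84*, an H/ACA box gene, was at 1 in both untreated *ubc9-6* lists and 0 in the other 6. In those untreated lists its peak took in *RBA50*, 63 bp away, and *SNA2*, 1641 bp away. *RBA50* (an RNAPII assembly factor gene) was at 1 in both of them and between 0.0515 and 0.205 elsewhere, while *SNA2* was at 1 in all 8 lists. The peaks of the untreated *ubc9-6* lists thus reached from a region covered throughout to *SNR84*.

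The U3 snoRNA, which pairs with the rRNA precursor at the start of its processing, is encoded by *SNR17A* (chrXV:780107-780596, plus strand) and *SNR17B* (chrXVI:281056-281517, minus strand), whose gene sequences were identical in 81.6% of alignment columns. *SNR17A* was at 1 in all 8 lists. Its peak ranked 14 and 63 by fold for untreated WT, 32 and 97 for WT under heat shock, 14 and 13 in untreated *ubc9-6* and 33 and 44 in heat-shocked *ubc9-6*, so it was among the 100 highest peaks everywhere. The peak was 960 to 1161 bp wide in WT and 2841 to 3178 bp in *ubc9-6*, where it took in *RPL33B*. *SNR17B* was at 1 in both untreated *ubc9-6* lists and at 0 in the other 6, and where covered it lay under a peak of 5803 or 5667 bp that ranked 264 and 244 and took in *KES1*, *POC4* and *RPL33A*. *RPL33A*, 604 bp away, was at 1 in all *ubc9-6* lists and at 0 in all WT lists. How reads from stretches shared by both copies were placed is not given in the sources used here, so the split between *SNR17A* and *SNR17B* is uncertain.

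The promoter windows of the U3 copies (250 bases before to 50 after the annotated start) are shown because the copies differed in RNAPII peaks and in motif content. The capitals mark the core recognized by Tbf1, a factor known to bind many snoRNA promoters in budding yeast (ACCCTAA or GCCCTAA, on either strand). The windows are chrXV:779857-780156 (plus) and chrXVI:281468-281767 (minus).
SNR17A: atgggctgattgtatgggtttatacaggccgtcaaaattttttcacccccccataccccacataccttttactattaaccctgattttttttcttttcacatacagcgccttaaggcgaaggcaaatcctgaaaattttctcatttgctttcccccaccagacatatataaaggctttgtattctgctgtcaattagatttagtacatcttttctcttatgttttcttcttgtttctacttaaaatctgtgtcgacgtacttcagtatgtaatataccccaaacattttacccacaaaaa
SNR17B: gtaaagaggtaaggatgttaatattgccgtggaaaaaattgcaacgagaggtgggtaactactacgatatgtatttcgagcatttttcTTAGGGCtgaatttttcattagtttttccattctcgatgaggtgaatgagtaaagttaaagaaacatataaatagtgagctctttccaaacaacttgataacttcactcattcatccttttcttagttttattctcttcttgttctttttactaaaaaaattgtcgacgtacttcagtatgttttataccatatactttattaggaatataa
The core was in the *SNR17B* window, starting 162 bases before the gene, and not in that of *SNR17A*, and the windows were identical in 55.2% of alignment columns. Over the 56 independent transcription units (clusters counted once, by their first gene), 11 (19.6%) held the Tbf1 core, against 3.48% of all genes with a full window. Of the 49 units whose first gene was occupied in all 8 lists, 10 held it, and of the other 7 units 1 did. The core of Reb1 (TTACCCG), another general regulatory factor, was in 8 of 56 units (14.3%) and 6.91% of all genes. That of Rap1 (CACCCATAC, or a longer form with a free base), the main factor at ribosomal protein genes, was in 0 of 56 units and 0.747% of all genes. A match is only a string of letters, and binding was not measured.

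Among the other members with a role in cleavage of the rRNA precursor, *SNR128* (U14), *SNR30* and *SNR10* were at 1 in all 8 lists. *SNR128* and its upstream partner *SNR190* shared a peak that ranked 27 and 61 by fold for untreated WT, 48 and 122 for WT under heat shock, 6 and 5 in untreated *ubc9-6*, and 13 and 28 in heat-shocked *ubc9-6*. It stood higher in all 4 *ubc9-6* lists than in 3 of the 4 WT lists. In untreated *ubc9-6* the peak was 2392 and 2286 bp wide and took in *RPA34*, a subunit gene of RNA polymerase I, while in the other lists it covered no ORF. *SNR30* lay in a peak with *AAT2*, *ADE16* and *RPL15A* in each list, so its own signal cannot be separated from theirs.

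The snoRNA genes that share a transcript formed 5 clusters with 17 genes (same strand, gaps of at most 500 bp). The longest is *SNR78-SNR77-SNR76-SNR75-SNR74-SNR73-SNR72* on chromosome XIII (297278 to 298651, plus strand, 1374 bp), made of C/D box genes, and its peak covered no ORF in any list. The peak began between 275 and 633 bp before *SNR78* in all lists. Measured from the start of *SNR78*, it ended at 1458 and 1066 bp for untreated WT, at 966 and 684 bp for WT under heat shock, 1667 and 1722 bp in untreated *ubc9-6* and 1586 and 1626 bp in heat-shocked *ubc9-6*. The 3′ edge thus lay beyond the last gene in all *ubc9-6* lists and in untreated WT replicate 1, and fell short of it in the other 3 WT lists.

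Along the cluster, *SNR78*, *SNR77* and *SNR76* were at 1 in all lists and the genes farther along were not. *SNR75* was at 0.506 in heat-shocked WT replicate 2 and at 1 elsewhere, and *SNR74* was at 0 in that list and at 1 elsewhere. *SNR73* was at 1 and 0.358 in untreated WT and *SNR72* at 1 and 0. Both were at 0 in both heat-shocked WT lists and at 1 in all *ubc9-6* lists. By fold the peak ranked 202 and 153 for untreated WT, 269 and 310 for WT under heat shock, 5 and 14 in untreated *ubc9-6* and 62 and 91 in heat-shocked *ubc9-6*. The 4 groups did not overlap in rank, and how often this holds for other peaks was not counted. In *SNR67-SNR53* on chromosome V, the downstream gene *SNR53* was likewise the one not always covered, at 1 and 0.747 for untreated WT, 1 and 0 for WT under heat shock and 1 in all *ubc9-6* lists. The clusters *SNR190-SNR128*, *SNR57-SNR55-SNR61* and *SNR41-SNR70-SNR51* were covered in full in all lists.

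**Figure D3:**
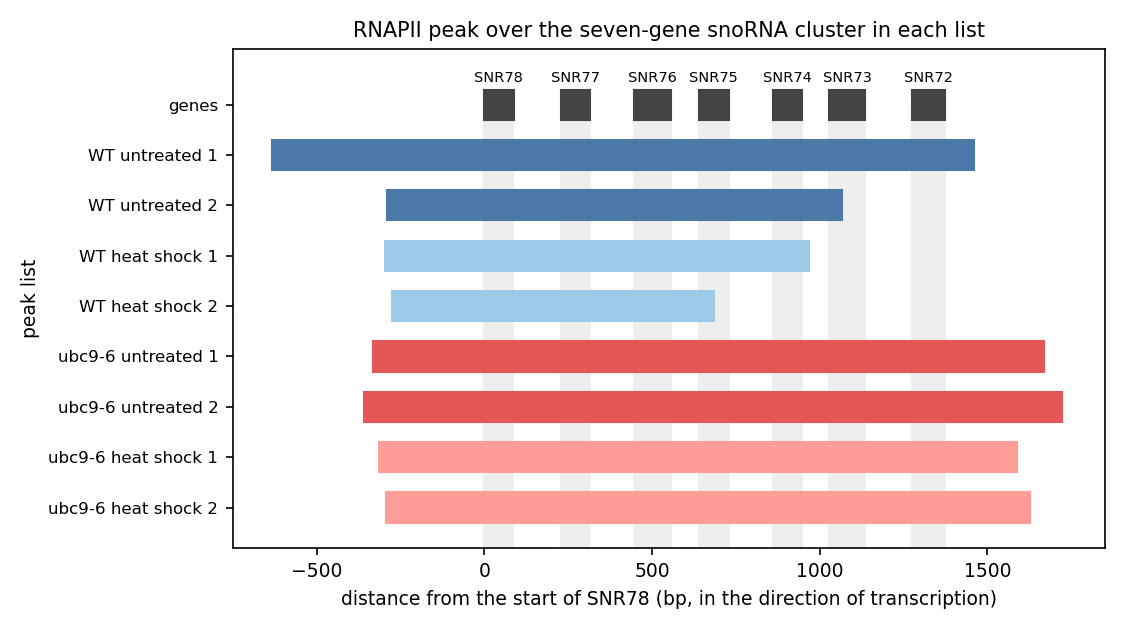
Extent of the RNAPII peak (horizontal bars) over the 7 genes of the *SNR78* to *SNR72* cluster (dark boxes and grey bands) in each list, against distance in bp from the start of *SNR78*. The upstream edges are alike in 7 lists (275 to 359 bp before the gene, 633 bp in untreated WT replicate 1), and the downstream edges run from 684 bp in heat-shocked WT replicate 2 to 1722 bp in untreated *ubc9-6* replicate 2.

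How peaks stood within each list was examined for all independent members. They were occupied under 47 to 52 different peaks per list, and from 70.2% (heat-shocked WT replicate 2) to 92.3% (both untreated *ubc9-6* lists) of these were in the top 25% of the list by fold. The median rank was 188 and 202 for untreated WT, 200 and 254 for WT under heat shock, 134.5 and 109.5 in untreated *ubc9-6*, and 164.5 and 195.5 in heat-shocked *ubc9-6*. These peaks had a median width of 1823 and 1440.5 bp in untreated WT and of 2391.5 and 2193.5 bp in untreated *ubc9-6*, and 12 and 14 of them covered no ORF in the latter lists against 18 and 21 in the former. After heat shock the strains overlapped, with median widths of 1840 and 1171 bp in WT and 1830 and 1697 bp in *ubc9-6*, and 18 and 23 against 15 and 19 peaks without an ORF. The median width of all peaks was 1429 and 1396 bp in untreated WT and 1396 and 1488 bp in untreated *ubc9-6*. Of the 57 independent genes occupied in all 8 lists, 12 lay under a peak without an ORF in every list, 21 under a peak with an ORF in every list, and 24 under either kind. Among the 21 are *SNR10*, *SNR60* and *SNR17A*, each of which overlaps an annotated ORF (*YGL088W*, *YJL047C-A* and *IRC13*). For these genes an ORF under the peak need not be a separate neighbour.

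The 12 genes whose peak never covered an ORF give values that do not include a neighbouring ORF by that measure, and lay under 9 peaks. *SNR8*, an H/ACA box gene, ranked 36 and 21 for untreated WT, 60 and 46 for WT under heat shock, 18 and 16 in untreated *ubc9-6* and 40 and 42 in heat-shocked *ubc9-6*. *SNR33*, of the same family, ranked 317 and 329, 503 and 878, 221 and 177, and 370 and 414 in the same order. *SNR67* ranked 234 and 419, 371 and 1080, 68 and 67, and 138 and 215. By rank within the list, the untreated *ubc9-6* lists placed all 3 nearest the top, and *SNR8* and *SNR33* were placed lower after heat shock than without it in WT and in *ubc9-6*. *SNR85* was nearly level, at 90 and 87, 80 and 93, 141 and 96, and 79 and 99, and so was *SNR82*, at 173 and 201, 186 and 282, 198 and 190, and 191 and 245.

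Over both treatments, the mean rank number was lower (nearer the top of the list) in *ubc9-6* for 8 of the 9 peaks, and 4 of these reached the smallest exact permutation p (0.0556, two-sided), those of *SNR33*, *SNR67*, *SNR8* and the *SNR78* cluster. The mean rank numbers differed by -211.25, -404, -11.75 and -190.5 (*ubc9-6* minus WT). Over both strains, the mean rank number was higher (farther from the top) after heat shock for 8 of the 9 peaks, and the peaks of *SNR33*, *SNR8* and the *SNR78* cluster reached p = 0.0556 (exact permutation test), with differences of 280.25, 24.25 and 89.5. A rank is a place within a list and need not follow the fold itself. At *SNR8* the fold was 6.63 and 7.52 for untreated WT, 5.46 and 6.27 for WT under heat shock, 6.79 and 6.70 in untreated *ubc9-6* and 5.71 and 5.21 in heat-shocked *ubc9-6*, so by fold the strains overlapped there. These permutation tests cannot go below 0.0556. Shifts in rank were not counted for peaks outside the snoRNA genes, so whether they are particular to snoRNA genes was not tested. Fold is a mean over the peak and widths also differed between lists (348 to 681 bp at *SNR33* and 960 to 2092 bp at the cluster), and their part in the ranks was not tested.

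**Figure D4:**
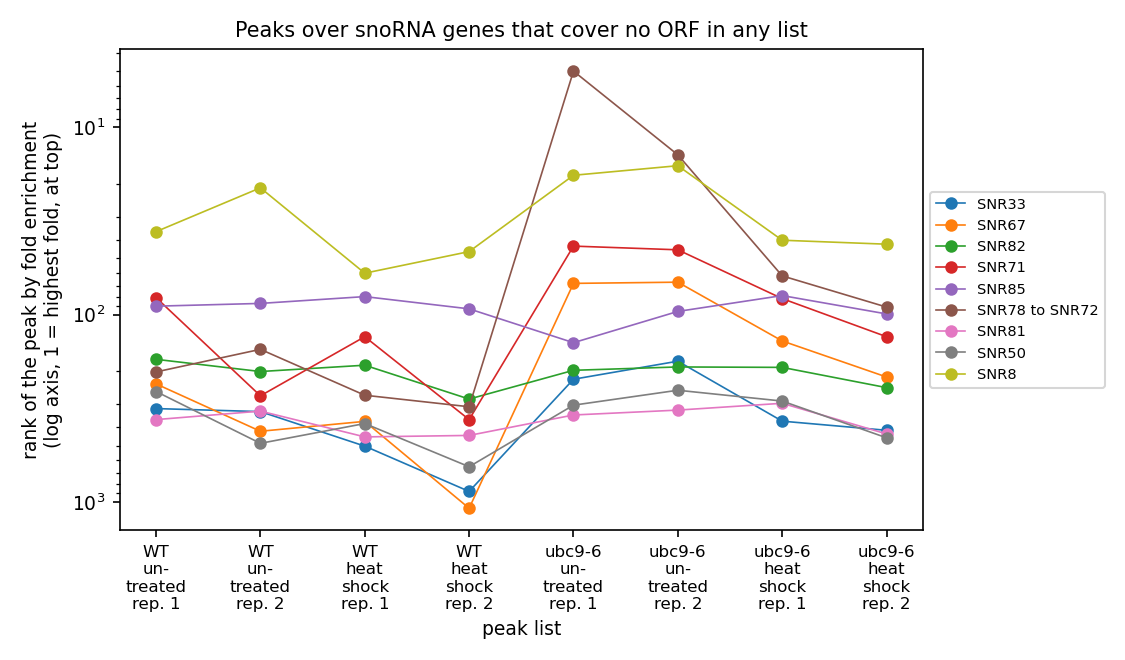
Rank by fold enrichment (log axis, highest fold at the top) of the 9 peaks that covered snoRNA genes and no ORF in any list, in each of the 8 lists; lines join the values of one peak. The *SNR78* cluster moves from 153 to 310 in WT to 5 and 14 in untreated *ubc9-6*, while *SNR85* stays between 79 and 141.

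*SNR39B* is a further case in which the peak and not the covered share differed. It was at 1 in all 8 lists. In the 4 WT lists it had a peak of its own of 566 to 621 bp that covered no ORF and ranked 95, 91, 157 and 155. In the 4 *ubc9-6* lists the peak was 3078 to 4945 bp wide, took in *RPL7A* with the intronic *SNR39*, and ranked 158, 180, 397 and 477. The lower ranks in *ubc9-6* are therefore those of a wider peak and cannot be set against the WT values for the gene alone.

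*SNR52* had no base under a peak in 7 lists and a covered share of 0.467 in heat-shocked *ubc9-6* replicate 2, where a peak over the neighbouring ORF *GLC7* ended within it. Among the other small RNA genes, the RNAPII-transcribed spliceosomal RNA genes *LSR1*, *SNR19*, *SNR14* and *SNR7* (U2, U1, U4 and U5) were at 1 in all 8 lists. *SNR6* (U6) and *SCR1*, which RNA polymerase III transcribes, were at 0 in all lists but for 0.116 at *SNR6* in heat-shocked *ubc9-6* replicate 2. *RPR1*, of the same class, was between 0.0407 and 0.201. *NME1*, the RNA of RNase MRP, was at 1 in all lists, and the telomerase RNA gene *TLC1* was occupied only in untreated *ubc9-6* replicate 2. None of these 9 genes was gained or lost in any of the comparisons of 2 lists against 2.

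The genes of proteins that build snoRNA particles were compared as a further group. The 4 C/D box core protein genes are *NOP1* (the methyltransferase), *NOP56*, *NOP58* and *SNU13*, and the 4 H/ACA box core protein genes are *CBF5* (the pseudouridine synthase), *NHP2*, *GAR1* and *NOP10*. All 8 were occupied in both untreated *ubc9-6* lists, with shares from 0.893 to 1, and 6 of them (all but *SNU13* and *NOP10*) had no base under a peak in the other 6 lists. Hence 6 of 8 were gained in untreated *ubc9-6* against WT (background 5.63%) and lost on heat shock in *ubc9-6* (background 3.81%). *SNU13* was at 0.995 and 1 for untreated WT, 0 and 0 for WT under heat shock and 1 in all *ubc9-6* lists. *NOP10* was at 0.740 and 1, 0 and 0, 1 and 1, and 0.627 and 1 in the same order as above. Both were lost on heat shock in WT, as were *SNR38* and *SNR44*.

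**Figure D5:**
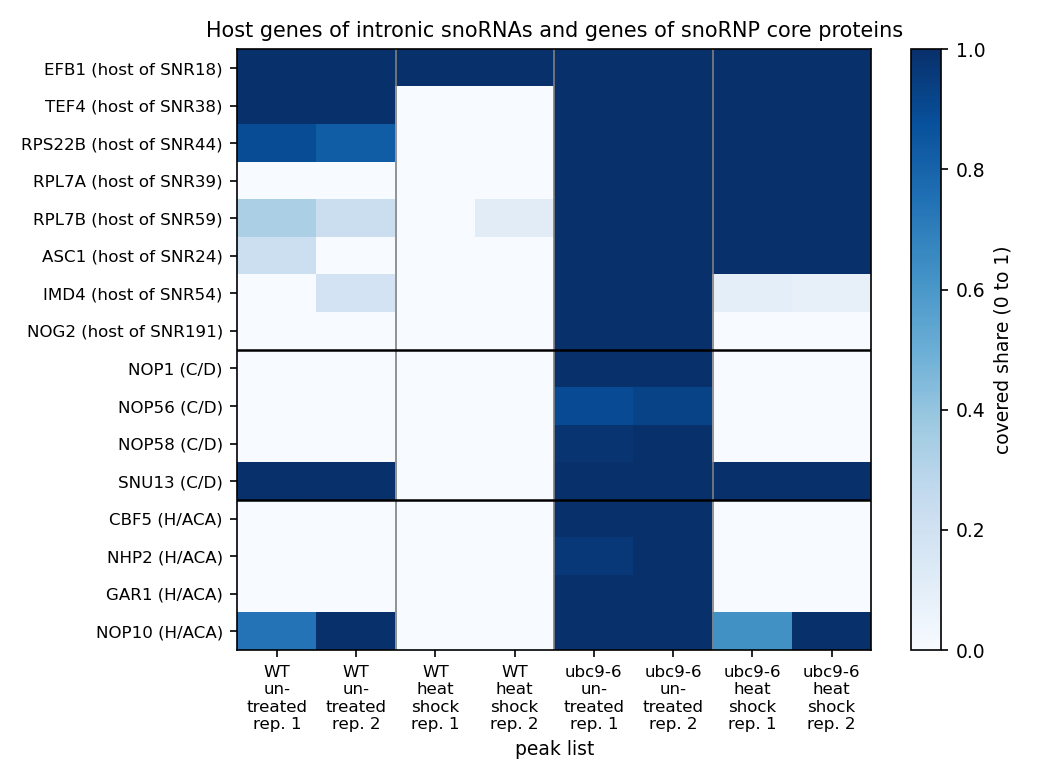
Covered share (colour, 0 to 1) of the 8 host genes of intronic snoRNAs (top) and of the 8 genes of snoRNA particle core proteins (C/D in the middle, H/ACA at the bottom) in each list. Of the core protein genes, 6 are filled in the 2 untreated *ubc9-6* lists only, and of the hosts *IMD4* and *NOG2* have high shares in those lists only.

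Of 18 genes for assembly, termination and processing factors, 1 or 2 were occupied in a list (1670 to 1897 of 6431 for all genes), except in heat-shocked *ubc9-6* replicate 1, where none was, and 14 (77.8%) were occupied in no list, against 56.1% of all genes. *NRD1*, which encodes an RNA-binding protein that ends snoRNA transcription, was at 1 in both untreated *ubc9-6* lists and between 0.249 and 0.439 in the other 6. It was the 1 gene of the 18 gained in untreated *ubc9-6* against WT (background 5.63%). It was also the 1 lost in *ubc9-6* on heat shock (background 3.81%). *TGS1*, the methyltransferase that modifies the cap of snoRNAs, was at 1 in all 4 WT lists and at 0 in all 4 *ubc9-6* lists, the opposite of *SNR39*, *SNR59*, *SNR24* and *SNR80*. It was the 1 gene of the 18 lost in untreated *ubc9-6* against WT (background 4.26%), and 1.12% of all genes were occupied throughout WT but never in *ubc9-6*. With 18 genes, 1 call cannot be told from these background shares. *TBF1*, the factor of the promoter core above, had no base under a peak in any list.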

How the data were processed

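RNAPII ChIP-seq of 8 immunoprecipitates, each with an input (16 samples), gave 8 deposited broad peak lists. As the study's methods and the labels describe, the authors trimmed paired-end reads, aligned them with Bowtie2 (version 2.3.5) to sacCer3 and called broad peaks per replicate with MACS2 (version 2.1.1.20160309), with input as control and a q cutoff of 0.1. Each deposited peak carries a mean fold enrichment over input (a ratio, 1.16 to 16.3 here) and, per the authors' caller, the −log10 of its p-value and q-value. Inputs entered only through peak calling. The realized depth is unknown here, and depth can affect the number and width of peaks.

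Samples were grouped from their titles. Covered shares, calls, ranks by fold within a list and motif matches were computed in Python 3.11.15 with numpy 2.4.6 and Biopython 1.88, from the R64 annotation (chromosome names and lengths as in sacCer3), and figures were drawn with matplotlib 3.10.9. Exact permutation tests of single genes were two-sided. Peak lists hold no reads, so a model of reads over genes, as the study used, was not fitted. The calls were tested on simulated lists. ORFs ran from start to stop codon, introns included.

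The snoRNA genes and the gene lists were chosen with earlier results of these data known. The text names intronic members with their hosts, the U3 genes, *SNR128*, *SNR30*, *SNR52*, cluster members and members gained or lost in every replicate. *SNR39B*, *SNR10*, *SNR58* and the members under peaks without an ORF were named after their values were seen. *NME1* was listed among RNA polymerase III genes in the plan and is given here without a polymerase. Alternatives were an occupied share of 0.25 or 0.75, peaks with −log10 q of at least 5, the top 1000 peaks by −log10 q, leaving out each list, and a replicate block.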

Additional observations from a re-analysis of the deposited data

How the results depend on the processing

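The numbers of snoRNA genes gained and lost stayed within 1.5 times their values in all 4 comparisons of 2 lists against 2 and both pooled comparisons when the occupied share was 0.25 or 0.75, when peaks needed a −log10 q of at least 5 and when the top 1000 peaks per list were used. The difference in mean number of occupied snoRNA genes between heat-shocked and untreated *ubc9-6*, -4 as reported, was -3.5 with a share of 0.25 and -4.5 both with −log10 q of at least 5 and with the top 1000 peaks, and its replicates had no spread. Leaving out 1 list at a time, the genes lost on heat shock in WT numbered 2 to 6, and those occupied throughout *ubc9-6* but never in WT 4 to 8. The genes gained in *ubc9-6* against WT numbered 8 to 12 when untreated, with 12 without untreated WT replicate 1. After heat shock they numbered 10 to 13, with 13 without heat-shocked WT replicate 1. Without heat-shocked WT replicate 2, the heat shock difference in covered share over both strains changed sign for *SNR63*, whose range was -0.402 to 0.0474 over the left-out lists, and for *SNR53*, with -0.270 to 0.0632.

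The replicate block counted genes whose share moved by at least 0.5 the same way in both same-numbered pairs. It gave 0 gained and 2 lost for heat shock in WT, 0 and 4 in *ubc9-6*, 8 and 0 between untreated strains, and 10 and 0 between heat-shocked strains, as reported. The labels do not say that a number marks a shared culture or day, and deviations of same-numbered lists over all genes correlated at 0.34 in WT and at 0.01 to 0.05 in the other 3 comparisons.

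With 2 lists per group the exact permutation tests used here cannot go below 0.0556. How close an uncovered gene came to the peak threshold cannot be read from the lists. Many occupied genes lay under a peak that also covered an ORF, and the part of such peaks in the calls was not tested.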
